A study of Mus musculus with 4 samples.

Results

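The genes described are the beta, gamma and delta segments of the mouse T cell receptor. They were taken as every gene whose symbol starts with Trbv, Trbc, Trgv, Trdv, Trdc or Tcrg, which gave 51 of the 55253 genes listed in both gene matrices. They comprise 35 beta variable (Trbv), 2 beta constant (Trbc1 and Trbc2), 7 gamma variable (Trgv), 6 delta variable (Trdv) and 1 delta constant (Trdc) genes. No symbol starts with Tcrg, because the matrices call the gamma constant genes Trgc1 to Trgc4. These 4 genes and the alpha constant gene Trac lie outside the rule and are given beside the members as related genes.

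T cells carry 1 of 2 kinds of receptor, an alpha-beta or a gamma-delta chain pair, each held at the surface with the CD3 proteins. Each chain is made by joining a variable segment to joining and constant segments, so the variable segment differs between T cell clones while the constant gene marks the kind of chain. Gamma-delta T cells and T cells within epithelia often lack CD4 and the CD8 beta chain (Cd8b1), and intraepithelial T cells commonly carry the integrin Itgae (CD103) and granzyme B (Gzmb).

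The study profiled CD45+ cells, the white blood cells, of the mammary gland in 2 pooled droplet libraries, called the earlier and the later library after the years in their names. Hash tags, which are antibodies with a DNA barcode, assigned cells to 11 samples. The earlier library held samples named Nulliparous, Gestation and Lactation and a sample on tag HT2. The later library held Gestation, Lactation, Involution and Regression (stages after weaning), Balb/c (an inbred strain), GF and again HT2. The tag sheets call HT2 Germ-free, which the sample titles of the earlier library do not bear out. The titles list Nulliparous, Pregnant, Lactation and Involution for the earlier library, and these with Regression, Balb and GF for the later one. No sample was named Involution in the earlier library or Nulliparous in the later one. What HT2 holds is not known and may differ between the libraries. HT2 is therefore called by its tag and takes part only in comparisons within samples and in descriptions. No treatment, transgene, age or number of animals per tag is given in the sources used here, nor the strain of the mice named for a stage, nor the stage of those named Balb/c and GF. Where nothing says that samples came from separate animals, p-values measure the spread between these samples only.

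After filtering, 15093 cells of the earlier and 14547 of the later library were analysed. The median depth of cells passing the filters was 1599 UMIs in the earlier and 3049 in the later library. A UMI is a molecular barcode that marks 1 captured RNA molecule. There were 139 cell barcodes present in both libraries. Cells with at least 1 UMI of Cd3e, Cd3d or Cd3g, called CD3-detected cells, numbered 6213 and 6706, with 455 to 2757 per sample. Values below are raw UMIs per 10000 UMIs of the cells named, and intervals are exact 95% intervals that cover counting error only.

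Of the 51 genes, 38 had UMIs in CD3-detected cells and 13 were at 0. RefSeq matched all 51 symbols and calls 13 of the Trbv genes pseudogenes, of which 12 were at 0. The exception, Trbv29, had 9 and 43 UMIs in the earlier and later library. In RefSeq on GRCm38.p6 the beta genes lie on chromosome 6 between 40891296 and 41558371, the gamma genes on chromosome 13 between 19178042 and 19352343, and the delta genes on chromosome 14 between 53881612 and 54149201. The 2 beta constant genes held 84.4% of the 49292 UMIs of all members in CD3-detected cells, Trdc 6.50%, gamma V segments 6.24%, beta V segments 2.02% and delta V segments 0.822%. The libraries were read from the 3′ end of transcripts, where the constant gene lies, and most V segments were seen in few cells. Trgv2 was an exception, detected in 11.4% and 11.6% of CD3-detected cells. It had 1096 UMIs against 713 of Trgc2 in the earlier library, and 1355 against 1707 in the later one. The reason was not tested. Trbc1 and Trbc2 are near-identical copies, and so are several Trgc genes, so UMIs may be split between copies and the split between them is uncertain.

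Free RNA was measured in cells with Cd79a and Ms4a1 and without CD3 UMIs, which are B cells (803 and 2476 cells). These cells had 0 and 2 UMIs of Trgv2, 2 and 27 of Trdc and 29 and 166 of both Trbc genes. Trbc1 stood at 0.169 and 0.123 per 10000 in these B cells against 4.21 and 3.70 in CD3-detected cells, Trbc2 at 0.119 and 0.156 against 8.66 and 7.73, and Trdc at 0.0199 and 0.0453 against 0.667 and 1.03. The B cells were shallower, with medians of 912 and 2037.5 UMIs against 1453 and 2994.5.

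CD3-detected cells were split by the coreceptor UMIs they held and, separately, by whether any Itgae or Gzmb UMI was detected. In the earlier library Itgae or Gzmb was detected in 13.8% of the CD3-detected cells of HT2, 28.4% of Nulliparous, 42.7% of Gestation and 72.3% of Lactation. In the later library the shares were 20.2% in HT2, 22.2% in Regression, 24.0% in Involution, 33.0% in Gestation, 39.3% in Lactation, 46.2% in GF and 55.7% in Balb/c. When each cell was thinned to 1000 UMIs the shares were 13.5%, 25.6%, 43.5% and 69.4% in the same order in the earlier library, and the later shares were 10.3% in HT2, 12.7% in Regression, 11.6% in Involution, 20.7% in Gestation, 31.0% in Lactation, 38.8% in GF and 48.4% in Balb/c. Thinning left out 983 shallower CD3-detected cells of the earlier and 86 of the later library. For these shares CD3 was also read from the thinned counts, so deeper cells that lost their CD3 UMIs were left out too. Of the 11 thinned shares, 9 lay outside the exact interval of the share before thinning. The class with Itgae or Gzmb was the deeper class in 11 of 11 samples.

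Cells with Cd8a and without Cd8b1 or Cd4, called Cd8a alone, made up 19.7% of CD3-detected cells in Lactation, 12.3% in Gestation, 11.1% in Nulliparous and 8.14% in HT2 in the earlier library. In the later library they made up 14.8% in GF, 10.7% in Lactation, 8.58% in Balb/c, 7.29% in Gestation, 6.15% in Involution, 4.76% in Regression and 3.30% in HT2. Cells with no coreceptor UMI were the most frequent class in each of the 11 samples, from 39.8% in the later Gestation sample to 68.8% in the earlier Gestation sample. In shallow cells a missing coreceptor UMI does not show that the coreceptor is absent.

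Among the gamma V segments, Trgv2 held 82.7% of the 1326 gamma V UMIs of the earlier library and 77.4% of the 1750 of the later one. Trgv1 followed with 9.05% and 10.8% and Trgv4 with 4.90% and 5.49%. Trgv6, Trgv7, Trgv3 and Trgv5 each held 3.03% or less in either library.

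In the earlier library Trgv2 stood at 0.209 per 10000 in HT2 (0.139 to 0.302), 0.614 in Nulliparous (0.549 to 0.685), 0.877 in Gestation (0.760 to 1.01) and 2.21 in Lactation (2.03 to 2.40). The intervals of these 4 samples did not overlap. Trgv2 was detected in 2.71%, 7.73%, 10.1% and 29.2% of the cells in the same order. In sums over cells, fewer cells with a transcript and less transcript per cell cannot be told apart. In the later library Trgv2 stood at 0.231 in HT2, 0.290 in Regression, 0.377 in Involution, 0.499 in Gestation, 0.561 in Lactation, 0.870 in GF and 1.11 in Balb/c. There the intervals of Gestation (0.450 to 0.552) and Lactation (0.455 to 0.684) overlapped, while Balb/c (0.998 to 1.24) lay above each of the other later samples.

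Trdc was lowest in Nulliparous (0.456), HT2 (0.522) and Gestation (0.639) and highest in Lactation (1.22) in the earlier library. In the later library it was 0.619 in HT2, 0.665 in Gestation, 0.756 in Lactation, 0.971 in Involution, 1.04 in Regression, 1.34 in GF and 2.07 in Balb/c. The order of samples thus differed between Trdc and Trgv2, since Involution and Regression lay above Gestation for Trdc and below it for Trgv2. Trgv1 was highest in Lactation (0.242) in the earlier library and in GF (0.164) and Balb/c (0.141) in the later one, and Trgv4 in Lactation (0.129) and in Balb/c (0.0868). Trgv6 reached its highest level in Involution (0.0736) and was at 0 in the later HT2 sample. Trdv4, a delta V segment, was highest in HT2 (0.187) in the earlier library and in Involution (0.233) and Regression (0.191) in the later one, with 0.0347 to 0.0687 in the other 5 later samples. The other delta V segments were sparse, with at most 0.0294 for Trdv2-2 and 0.0149 for Trdv1 in any sample. The beta constant genes varied less between samples, with Trbc1 between 2.89 and 4.77 and Trbc2 between 5.99 and 9.66.

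**Figure D1:**
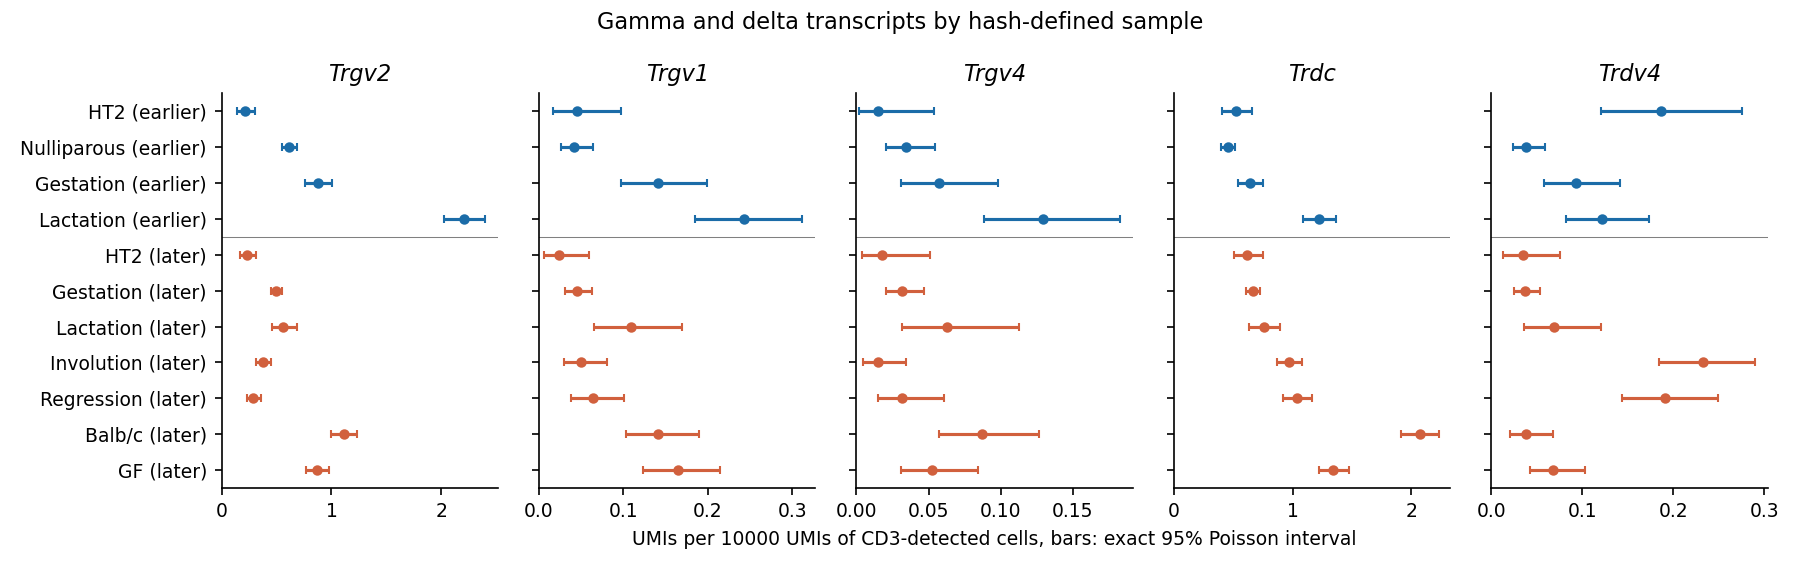
Level of 3 gamma V segments, Trdc and Trdv4 in CD3-detected cells of each hash-defined sample, as UMIs per 10000 UMIs on linear axes that differ between panels; blue points are the earlier and orange points the later library, and bars are exact 95% Poisson intervals. Trgv2 reached 2.21 in the Lactation sample of the earlier library and 0.561 in that of the later library.

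Lactation and Gestation were the only stages with a hash-defined sample of that name in both libraries. They were compared with 1 sum per stage and library. None of the 8 members that passed the filter on low counts was called by edgeR's quasi-likelihood test, against a background of 0.00956% of 10455 genes called higher and 0.0287% called lower, or 0.0383% in either direction, and DESeq2 called 0 of them too. Unadjusted edgeR p-values were under 0.05 for 3 of the 8, and for 471 of all 10455 genes tested. The log2 fold change of Trgv2 was 0.75 (SE 0.29, adjusted p = 0.947), of Trgv1 0.97 (SE 0.34, adjusted p = 0.880), of Trgv4 1.05 (SE 0.44, adjusted p = 0.998) and of Trdc 0.53 (SE 0.24, adjusted p = 0.998). Within the libraries the value of Trgv2 was 1.31 in the earlier and 0.10 in the later one, and it was -0.54 when the Lactation sample of the earlier library was left out, in a fit that had no library block either. Trbc1 and Trbc2 differed by -0.32 (SE 0.22) and 0.08 (SE 0.25), and Trbc1, Trbc2, Trdc, Trdv4 and Trbv3 also changed sign in some alternatives. Outside the members, edgeR called 0 of 17 genes of T cell receptor signalling tested, with unadjusted p-values under 0.05 for 3, and 0 of 8 tested genes known from gamma-delta T cells, with unadjusted p-values under 0.05 for 2. Those 2 were Cd160 (log2 fold change 0.90, SE 0.21) and the chemokine receptor Ccr6 (-2.26, SE 0.62).

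Within samples, gamma and delta transcripts were higher in the CD3-detected cells that held Itgae or Gzmb UMIs, and the beta constant genes were not called. Trgv2 in cells without Itgae or Gzmb was 0.176 per 10000 in HT2, 0.184 in Nulliparous, 0.320 in Gestation and 0.584 in Lactation of the earlier library. In cells with Itgae or Gzmb of the same samples it was 0.391, 1.35, 1.56 and 2.63. The later library gave the same order of the classes. There the level without Itgae or Gzmb was 0.174 in HT2, 0.222 in Regression, 0.151 in Involution, 0.152 in Gestation, 0.155 in Lactation, 0.113 in GF and 0.383 in Balb/c. With Itgae or Gzmb it was 0.419, 0.461, 0.959, 1.03, 1.07, 1.60 and 1.64 in the same order. Each of the 11 samples had the higher Trgv2 level in the class with Itgae or Gzmb, although the ranges of the classes overlapped between samples.

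Trdc was likewise higher in that class in 11 of 11 samples. Its level ran from 0.190 in Nulliparous to 0.897 in Balb/c without Itgae or Gzmb UMIs and from 0.863 in the later HT2 sample to 2.92 in Balb/c with them. The summed UMIs gave a log2 fold change of 2.34 for Trgv2 (SE 0.18, edgeR adjusted p = 5.61e-08) and of 1.51 for Trdc (SE 0.13, edgeR adjusted p = 2.30e-07). They are 2 of the 4 members that passed the filter on low counts, and 13.0% of all 8954 genes tested were called higher and 14.4% lower. A gene that is low in one class can pass that filter through the other class, so nothing is read from how many members were called. In cells without Itgae or Gzmb the sums held 409 UMIs of Trgv2 and 983 of Trdc. Trbc1 differed by -0.15 (SE 0.07, adjusted p = 0.123) and Trbc2 by -0.13 (SE 0.05, adjusted p = 0.0887). With at least 2 CD3 UMIs per cell both beta constant genes were called lower, at -0.28 and -0.24 with edgeR adjusted p = 0.00686 and 0.00474.

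The gamma constant genes moved with Trgv2, at log2 fold changes of 1.96 for Trgc1, 2.28 for Trgc2 and 2.01 for Trgc4, with adjusted p-values of at most 1.53e-07 by edgeR. Trgc4 was also found in cells with the natural killer marker Ncr1 and no CD3 UMI. It stood there at 1.04 and 0.903 per 10000, against 0.792 and 0.481 in CD3-detected cells of the earlier and later library. The part of natural killer cells in the rise of Trgc4 was not tested. Trac fell by 0.47 (SE 0.06, edgeR adjusted p = 2.00e-05). The rarer gamma V segments were mostly too sparse for the fit. Trgv1 ranged from 0.0488 to 0.300 per 10000 with Itgae or Gzmb and from 0.0121 to 0.0481 without, and these ranges did not overlap. Trgv4 was higher with Itgae or Gzmb in 11 of 11 samples, Trdv4 in 9 and the sum of all beta V segments in 2. In cells with Ncr1 and no CD3 UMI Trdv4 stood at 0.312 and 0.327, against 0.0847 and 0.0900 in CD3-detected cells. The median of the beta V sum was 0.249 with Itgae or Gzmb and 0.299 without.

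**Figure D2:**
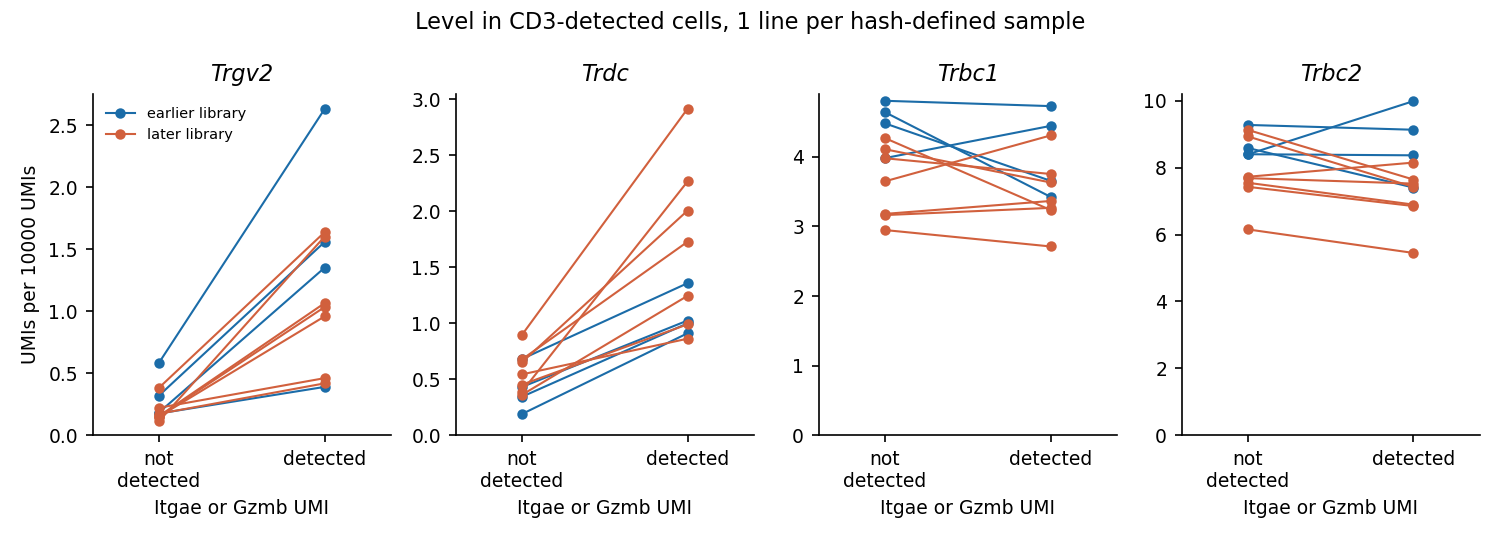
Level of Trgv2, Trdc, Trbc1 and Trbc2, as UMIs per 10000 UMIs on linear axes that start at 0 and differ between panels, in CD3-detected cells without and with Itgae or Gzmb UMIs; each line joins the 2 classes of 1 sample, blue for the earlier and orange for the later library. Trgv2 and Trdc were higher with Itgae or Gzmb in 11 of 11 samples, while Trbc1 was higher in 4 and Trbc2 in 2.

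Of the 17 T cell receptor signalling genes, all tested, 3 rose and 11 fell with Itgae or Gzmb, and their median log2 fold change was -0.37 against 0.0007 for all genes tested. Fcer1g, a signalling adaptor, rose by 1.78 (SE 0.19, edgeR adjusted p = 1.78e-06), and the costimulatory receptor Cd28 fell by 1.61 (SE 0.19, edgeR adjusted p = 5.42e-06). Of the 14 genes known from gamma-delta T cells 7 were tested, of which 1 rose and 3 fell, with a median of -0.22. The gene that rose was Cd160, a receptor also found on natural killer cells, at 1.61 (SE 0.12, edgeR adjusted p = 2.37e-08), and the transcription factor Maf fell by 0.89 (SE 0.25, edgeR adjusted p = 0.0120). None of the recombination genes Rag1, Rag2 and Dntt passed the filter on low counts.

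Markers of natural killer cells moved with the same split. The summed level of Ncr1, Klrb1c, Eomes and Klra8 ranged over samples from 3.87 to 5.91 per 10000 with Itgae or Gzmb and from 0.811 to 1.88 without in the earlier library, and from 2.59 to 9.10 and from 1.09 to 2.16 in the later library. Of the 4 markers, Ncr1, Klrb1c and Klra8 were higher with Itgae or Gzmb in the pooled cells of both libraries. Eomes was lower with them in the earlier library (0.211 against 0.377 per 10000) and nearly equal in the later one (0.534 against 0.541). No marker was at 0. Cells with Ncr1 and no CD3 UMI held 3 and 2 Trgv2 UMIs in 1344 and 1314 cells, so Trgv2 was at or near 0 in them. In the earlier library epithelial markers (Epcam, Krt8 and Krt18) were at 0.117 to 0.388 per 10000 without Itgae or Gzmb and at 0.293 to 0.708 with. B cell markers were at 0.565 to 0.846 without and at 0 to 0.443 with, and macrophage or monocyte markers at 4.24 to 6.94 without and at 1.27 to 4.59 with. In the later library macrophage or monocyte markers ran from 4.28 to 21.8 without and from 1.22 to 8.88 with. Epithelial markers there ran from 0.0612 to 0.727 without and from 0.0493 to 0.925 with, and B cell markers from 0.496 to 4.67 and from 0.222 to 1.70. Milk protein transcripts there ran from 8.37 to 50.9 without and from 6.80 to 481 with. The part of these markers was not tested. Trdc in the cells with Ncr1 was 0.336 and 0.622 per 10000, and their part in the difference of Trdc was not tested.

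The share of CD3-detected cells with Trdc and without any Trbc UMI was compared after each cell was thinned to 1000 UMIs. CD3 detection and the classes were taken before thinning. The share averaged 4.65% with Itgae or Gzmb (2.57% to 7.73% over samples) and 1.21% without (0.553% to 2.13%). The difference of 3.44 percentage points (SD 1.68) was positive in 11 of 11 samples, with a two-sided exact sign-flip permutation test giving p = 0.000977, the smallest p that 11 samples allow, and an adjusted p of 0.00195 over 4 class comparisons. Without thinning the shares averaged 2.60% and 1.06%. Their difference was 1.54 points, positive in 10 of 11 samples, and the later HT2 sample was reversed, with 1.09% against 1.93%. Thinning also drops Trbc UMIs, so a counted cell may hold beta constant transcripts. At full depth 37 CD3-detected cells of the earlier Lactation sample held Trdc without Trbc and 122 held both. In the later Gestation sample these counts were 18 and 147. Cells with no coreceptor UMI exceeded Cd4 cells by 3.67 points (SD 1.38, 11 of 11 samples, exact permutation test, adjusted p = 0.00195), or by 2.65 points without thinning. In the earlier library alone the differences were 2.49 and 3.05 points, where 4 samples cannot reach the threshold.

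Cells with Cd8a alone exceeded Cd8b1 cells by 1.19 points (SD 3.52), which did not pass the exact permutation test (adjusted p = 0.375). After thinning the GF sample stood apart there, with 16 of 140 Cd8a alone cells (11.4%) against 0% to 2.41% in the other 9 samples. Cd8b1 and Cd4 cells differed by 0.281 points (exact permutation test, adjusted p = 0.333). Without thinning the values were 0.234 and 0.311 points, and the share among Cd8a alone cells was at most 4.26% in any sample.

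The coreceptor classes differed in gamma and delta transcripts as well. In Cd8b1 cells Trgv2 ranged from 0.0380 per 10000 in the earlier HT2 sample to 0.818 in the earlier Lactation sample. In Cd8a alone cells it ranged from 0.292 to 2.94 in the same samples, and it was higher than in Cd8b1 cells in 10 of the 10 samples with enough cells. The log2 fold change was 2.10 (SE 0.13, edgeR adjusted p = 4.49e-10). Trdc had a log2 fold change of 1.34 (SE 0.40, edgeR adjusted p = 0.0310) but was higher in 5 of 10 samples only, with 3.86 in Cd8a alone cells of GF against 0.0636 to 0.749 in the other 9. The call for Trdc was lost with DESeq2 (0.81, adjusted p = 0.275), without the sample block (1.64, edgeR adjusted p = 0.0611), without HT2 (1.31, edgeR adjusted p = 0.0520) and within the later library (1.36, edgeR adjusted p = 0.162).

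Both members had few UMIs in Cd8b1 cells, 265 of Trgv2 and 190 of Trdc over 10 samples. Neither passed the filter when Cd8b1 cells were compared with Cd4 cells, so they entered this fit through the Cd8a alone class. Their calls are given as a description of these sums, and nothing is read from 2 of 4 tested members being called. Of all 5142 genes tested 6.18% were called higher and 7% lower. Trbc1 (-0.10, SE 0.10) and Trbc2 (0.01, SE 0.08) were not called, and Trbc2 changed sign in some alternatives. Among the signalling genes 2 of 16 rose and 8 fell, with a median of -0.27 against 0.001 for all genes, and Fcer1g rose by 2.26 (SE 0.13, edgeR adjusted p = 1.24e-10). NK markers moved with this comparison too, at 1.95 to 3.15 per 10000 in Cd8a alone cells against 0.494 to 1.45 in Cd8b1 cells in the earlier library and at 2.17 to 4.61 against 0.905 to 2.59 in the later library. Epithelial markers were at 0.195 to 0.817 in Cd8a alone cells and at 0.115 to 0.228 in Cd8b1 cells of the earlier library. The later library had 0.184 to 1.95 and 0 to 1.18, ranges that overlapped. Milk protein transcripts in the later library ran over samples from 8.27 to 1036 per 10000 in Cd8a alone cells and from 6.93 to 12.3 in Cd8b1 cells. They were found in 86.1% to 96.5% and 87.0% to 92% of the cells. The part of these markers was not tested. Of 4 tested genes known from gamma-delta T cells 1 rose, Cd160, by 1.24 (SE 0.14, edgeR adjusted p = 1.18e-06).

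Between cells without coreceptor UMIs and Cd4 cells, gamma and delta transcripts were higher without a coreceptor and beta constant transcripts lower. Trdc ranged from 0.680 to 2.79 per 10000 without a coreceptor and from 0 to 0.520 in Cd4 cells, with no overlap. The log2 fold change was 3.36 (SE 0.24, edgeR adjusted p = 1.06e-09) for Trdc and 3.21 (SE 0.30, edgeR adjusted p = 5.31e-08) for Trgv2, on 54 and 28 UMIs in Cd4 cells. Trgv1 and Trdv4, too sparse for the fit, were higher without a coreceptor in 11 of 11 samples. Trdv4 was higher still in cells with Ncr1 and no CD3 UMI, and the part of natural killer cells in its difference was not tested. Trbc1 fell by 0.36 (SE 0.10, edgeR adjusted p = 0.0237) and Trbc2 by 0.52 (SE 0.09, edgeR adjusted p = 0.000155). With so few UMIs in Cd4 cells, Trdc and Trgv2 entered the fit through the class where they are high, and their calls are given as a description of these sums. Of all 7765 genes tested 6.17% were called higher and 4.82% lower. Within the earlier library neither beta constant gene was called, at -0.11 and -0.32, nor was either without the sample block, at -0.28 and -0.47, and Trbc1 was not called with at least 2 CD3 UMIs per cell, at -0.17.

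Among the related genes Trgc1 was at 3.29, Trgc2 at 2.80 and Trgc4 at 2.72, on 37, 41 and 40 UMIs in Cd4 cells. They too entered the fit through the class where they are high, so these values only describe the sums. Trac was lower, with a log2 fold change of -0.99. Signalling genes rose in 2 and fell in 12 of 17, with a median of -0.44 against 0.005 for all genes, among them Cd5, an inhibitory surface receptor, at -1.83 (SE 0.12, edgeR adjusted p = 6.31e-10). Of 4 tested gamma-delta T cell genes 3 rose and 1 fell, with Cd160 at 2.48 and Tmem176a at 1.25. NK markers were also higher without a coreceptor, at 2.48 to 4.19 against 0.111 to 0.864 per 10000 in the earlier library and 1.80 to 5.19 against 0.109 to 1.21 in the later library, and their part was not tested.

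Cd8b1 and Cd4 cells were compared in 4754 genes, of which 6.44% were called higher and 5.91% lower. Both members tested, Trbc1 (-0.02, SE 0.07) and Trbc2 (-0.04, SE 0.07), were not called by edgeR, and DESeq2 called 0 of the 2. Unadjusted edgeR p-values were under 0.05 for 0 of the 2, and for 1106 of all 4754 genes tested. Both members changed sign in some alternatives. The other members were too sparse for the fit, and Trgv2 was higher in Cd8b1 cells in 10 of 11 samples and Trdc in 8. Among the signalling genes 3 of 16 rose and 7 fell, with a median of -0.03 against -0.005 for all genes. Of the 4 tested genes known from gamma-delta T cells Cd160 rose by 2.06 and Maf fell by 3.25, while Tmem176b (-0.61) and Tmem176a (-0.59) were not called, and their median was -0.60.

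**Figure D3:**
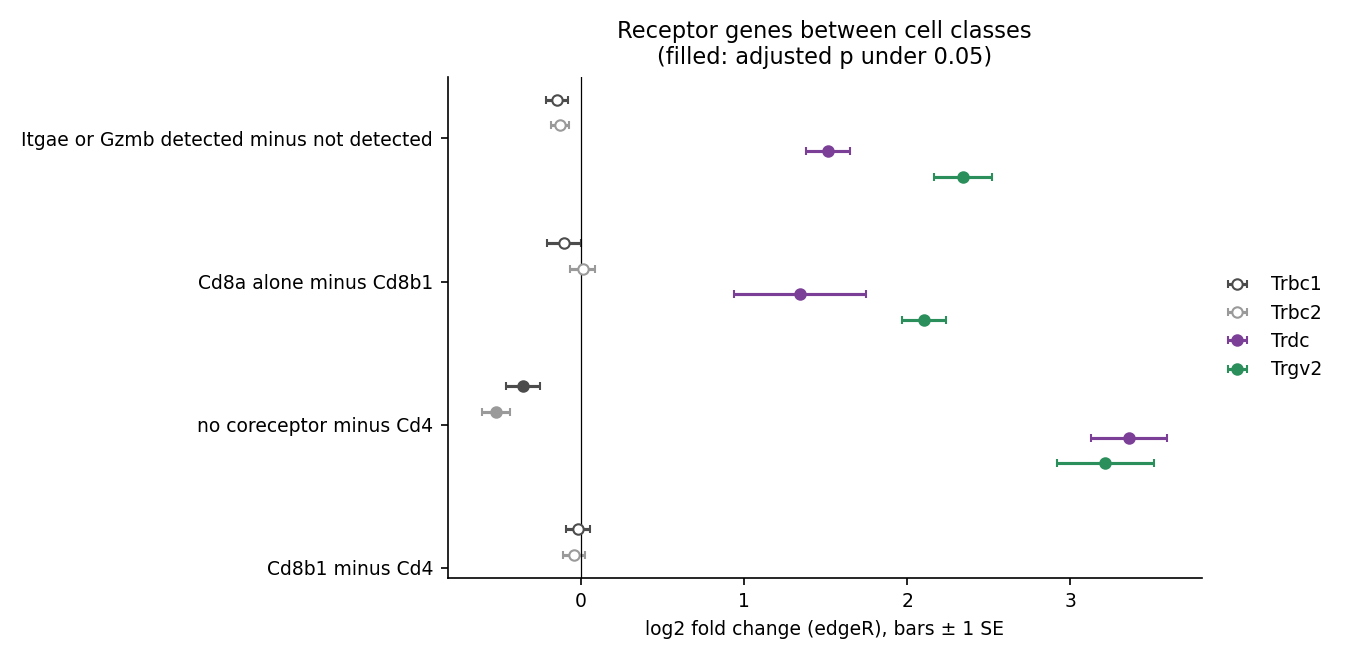
Log2 fold changes of the 4 members tested in the class comparisons, with bars of 1 SE; rows are the 4 comparisons, and filled points have an edgeR adjusted p under 0.05. Trgv2 and Trdc lay at or above 1.34 where tested and the beta constant genes between -0.52 and 0.01.

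Most cells with Trgv2 also held beta constant transcripts. Among cells whose only gamma V segment was Trgv2, 540 of 630 (85.7%, interval 82.7% to 88.4%) in the earlier and 577 of 629 (91.7%, 89.3% to 93.8%) in the later library had a Trbc UMI. Trdc was found in 20.3% and 29.1% of them, compared with 4.48% and 6.75% of cells with no gamma V UMI. Trbc UMIs were found in 78.7% and 85.3% of cells with no gamma V UMI, which were shallower, with median depths of 1389 and 2896 UMIs against 2078.5 and 3465. By coreceptor, 73.5% and 59.3% of the Trgv2 cells had none, 20.5% and 21.5% were Cd8a alone, 5.71% and 16.5% Cd8b1 and 0.317% and 2.38% Cd4. Itgae or Gzmb was detected in 81.6% and 74.1% of them, against 30.8% and 28.8% of cells with no gamma V UMI. Most cells with the other gamma V segments held Trbc UMIs too. They were found in 81.7% and 92.2% of Trgv1 cells, 76.3% and 82.9% of Trgv4 cells and 72.7% and 90.9% of Trgv6 cells. Trgv4 cells had Trdc in 26.3% of 38 and 48.6% of 35 cells, and Trgv1 cells in 26.7% of 60 and 40.3% of 77. These shares come from single libraries and were not tested.

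The gamma locus of the mouse is built of clusters, and a V segment usually joins the constant gene of its own cluster. Trgv2 lies with Trgc2, Trgv1 with Trgc4, and Trgv4 with Trgc1. The share of Trgc UMIs from the gene of the same cluster was compared between cells with only that V segment and cells with no gamma V UMI, in samples with at least 10 Trgc UMIs in both. This comparison was chosen after the data were seen. The Trgc2 share was a median of 42.9% in Trgv2 cells and 30.6% in cells with no gamma V UMI, higher in 11 of 11 samples (two-sided exact permutation test, adjusted p = 0.00293 over 3 comparisons). The Trgc4 share was 44.0% in Trgv1 cells and 31.1% without a gamma V UMI, higher in 8 of 9 samples (exact permutation test, adjusted p = 0.0156). The Trgc1 share was 50% in Trgv4 cells and 35.3% without, higher in 7 of 7 samples (exact permutation test, adjusted p = 0.0156).

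**Figure D4:**
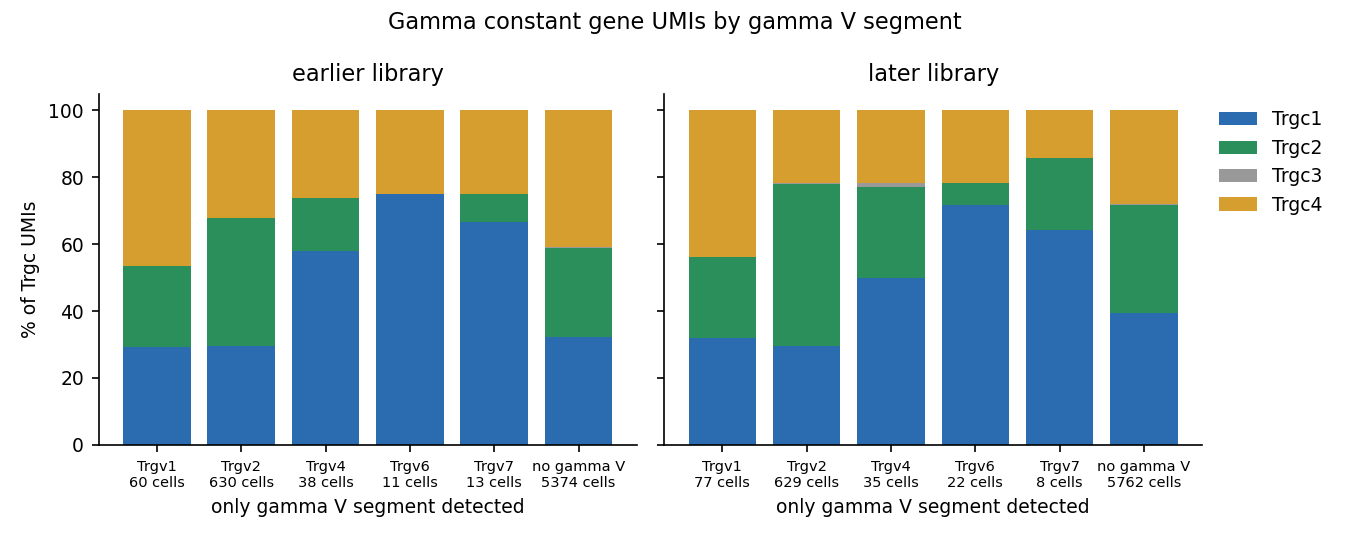
Share of gamma constant UMIs from each Trgc gene, in percent, in CD3-detected cells grouped by the only gamma V segment detected, with the number of cells under each bar and 1 panel per library; bars stack to 100 percent. Trgc2 held 38.0% and 48.4% in Trgv2 cells and Trgc4 46.7% and 43.8% in Trgv1 cells.

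At least 1 beta V segment was seen in 279 of the 6213 CD3-detected cells of the earlier library (4.49%) and, in the later and deeper library, in 644 of 6706 (9.60%). Beta V segments were seen in 0 of 803 and 4 of 2476 B cells. More than 1 segment was detected in 1 and 10 cells. Among cells with a single segment, Trbv2 was found in 10.1% of 278 and 10.3% of 634 cells, Trbv3 in 9.71% and 9.31%, Trbv19 in 10.1% and 7.41%, Trbv12-2 in 6.83% and 9.15%, and Trbv13-2 in 6.12% and 6.47%. Trbv20 followed at 5.76% and 5.21%, Trbv16 at 7.19% and 5.21%, Trbv13-1 at 6.47% and 5.21%, Trbv1 at 5.04% and 4.73%, and Trbv29 at 3.24% and 5.99%. No beta V segment was found in more than 10.3% of such cells in either library, and 19 of the 35 Trbv genes had at least 20 UMIs in both libraries together.

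Balb/c mice carry mouse mammary tumour viruses whose superantigens delete T cells with certain beta V segments, and the superantigens are shown to T cells by the class II molecule I-E, whose alpha chain is H2-Ea. As a check of the label, H2-Ea in B cells stood at 15.7 per 10000 in Balb/c (13.7 to 17.9, found in 46 of 51 cells) and between 0 and 0.158 in the other 10 samples. The 5 segments known as targets, Trbv26, Trbv12-1, Trbv12-2, Trbv16 and Trbv15, were counted together. They were found in 11 of the 80 Balb/c cells with a single beta V segment (13.8%, interval 7.07% to 23.3%). The shares in the other later samples were 18.5% in Gestation, 27.4% in Involution, 27.4% in GF, 28.1% in Lactation, 33.3% in HT2 and 42.6% in Regression. Balb/c had the lowest of the 7 shares, its interval overlapped those of all later samples but Regression (30.7% to 55.2%), and with 1 Balb/c sample no test was made. Trbv26 was found in 0 of 80 Balb/c cells, which allows a share of up to 3.75% if 3 counts are taken as the limit of a count of 0 (exact interval up to 4.51%), and in 2.68% of all 634 such cells of the later library. Trbv12-1 was in 1.25% of Balb/c cells against 4.57% of all, Trbv12-2 in 5% against 9.15% and Trbv16 in 2.5% against 5.21%. Trbv15 went the other way, with 5% against 3.15%. Each of these Balb/c shares rests on at most 4 cells.

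**Figure D5:**
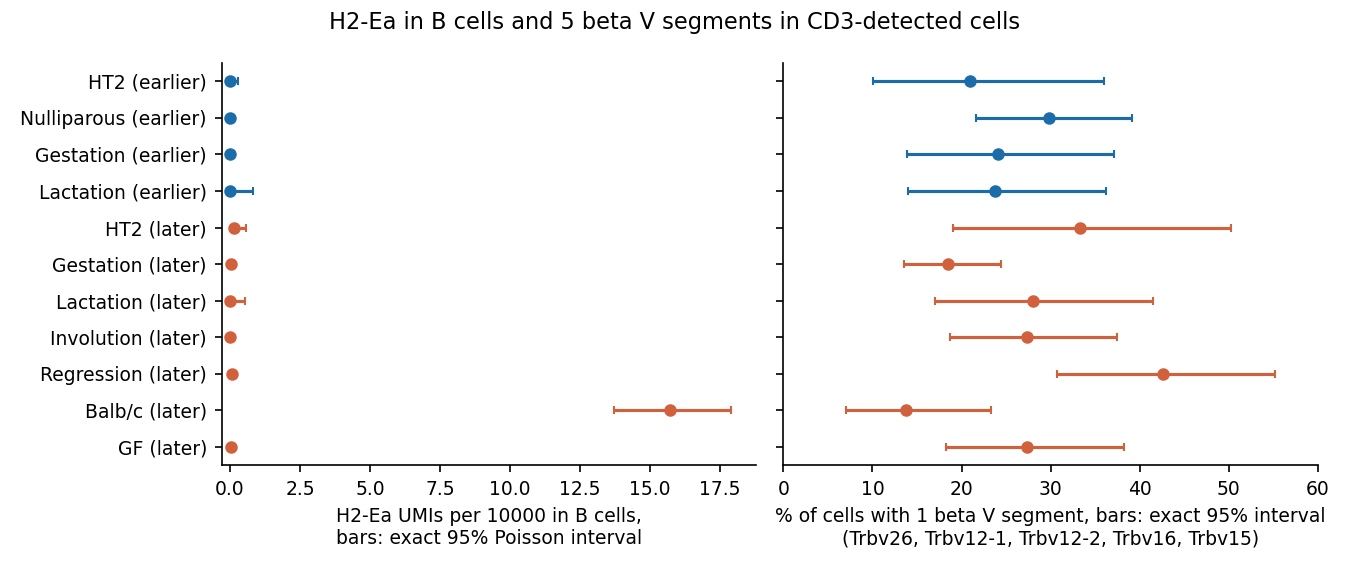
Left, H2-Ea UMIs per 10000 UMIs in B cells; right, percentage of CD3-detected cells with a single beta V segment that held 1 of the 5 target segments; 1 point per hash-defined sample, blue for the earlier and orange for the later library, with exact 95% intervals. Balb/c had an H2-Ea level of 15.7 and a segment share of 13.8%.

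Each alpha-beta T cell is known to use 1 beta constant gene on its productive chain. In CD3-detected cells Trbc1 held 32.7% and 32.4% of Trbc UMIs in the earlier and later library. Over the samples its share ran from 27.8% (later Lactation) to 36.3% (earlier Gestation). Of cells with at least 3 Trbc UMIs, 48.8% and 46.3% held UMIs of 1 of the genes only. Among cells with at least 8 Trbc UMIs, 54.5% of 202 and 53.5% of 954 had a Trbc1 share between 20% and 80%. The near-identity of the 2 genes limits what such mixed cells show, and how the authors' counting treated shared sequence was not tested.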

How the data were processed

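Gene expression and hash tags of CD45+ mammary gland cells were measured with 10x Genomics 3' v3.1 chemistry, per the labels' protocols. As deposited by the authors, the matrices give UMI counts of genes and counts of tags for each barcode, without normalization. Per the file headers, Cell Ranger 4 made the earlier gene matrix, and the submitters' processing notes name mm10 and Cell Ranger 6.1.0. Cells had at least 500 UMIs, 300 genes and at most 10% mitochondrial UMIs. Tags with at least 100 counts were called with HTODemux (Seurat 5.3.0, R 4.3.3, quantile 0.99). Scrublet calls (scanpy 1.11.5, Python 3.11.15, expected rate 0.08) and clusters with at least 50% such calls were removed. Doublets called were 9.61% and 7.69% of cells.

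Counts were summed per hash-defined sample and class with at least 20 cells and compared in edgeR 4.0.16 by its quasi-likelihood F-test (TMM, filterByExpr), with the sample, or for stages the library, as block. The classes compared come from the same hash-defined sample and so form pairs. Benjamini-Hochberg adjustment covered all genes tested, with a threshold of 0.05. SE was derived from the fold change and F. The scripts were tested on simulated data. Alternatives were DESeq2 1.42.0 and its size factors, no filter, other gates, depths and tag quantile, and leaving out samples or libraries. Named were all constant genes, the 10 leading Trbv segments, gamma and delta V segments with at least 20 UMIs, superantigen targets, and up to 4 genes per list. The members and lists were chosen with earlier results of these data known.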

Additional observations from a re-analysis of the deposited data

Results flagged for a closer look

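Cells with Ncr1 and without CD3 UMIs, which the comparisons between T cell classes leave out, held receptor transcripts above the level in B cells. In the earlier library Trbc1 stood at 2.95 per 10000 UMIs in these cells against 0.169 in B cells, and in the later library at 3.45 against 0.123. Trdv4 stood at 0.312 against 0.00994 in the earlier and at 0.327 against 0.00336 in the later library. Trbc1 held 56.8% and 63.3% of their Trbc UMIs, a larger share than in CD3-detected cells in 11 of 11 samples, and Trdv4 was above its level in CD3-detected cells in 10 of 11 samples. Trgv2 stood at 0.0120 and 0.00440 in the same cells. The related gene Trgc4 stood at 1.04 and 0.903 in them, against 0.0298 and 0.0134 in B cells and 0.792 and 0.481 in CD3-detected cells. These cells were chosen by single markers, and their makeup was not tested.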

How the results depend on the processing

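The number of genes called between Lactation and Gestation was 4, and it was 0 with DESeq2 size factors in edgeR, 10 with DESeq2, 185 with no filter on low counts, 18 with at least 2 CD3 UMIs, 26 with doublet calls kept, 11 with at least 1000 UMIs per cell, 0 with the tag quantile of 0.95, 0 with no replicate block, and 0 to 1 without each sample in turn and without the library block, where a lone sample is assumed to vary like the others. None of these settings called a member. With no replicate block the calls fell from 678 to 397 between Cd8a alone and Cd8b1 cells, from 853 to 520 between cells without a coreceptor and Cd4 cells, and from 587 to 265 between Cd8b1 and Cd4 cells. Within the earlier and later library 1230 and 1480 of 2455 calls were made for Itgae or Gzmb and 216 and 421 for Cd8a alone, and within the earlier library 104 for no coreceptor and 51 for Cd8b1 against Cd4. The shares of cells with Trdc and without Trbc differed within the earlier library by 2.49 points (exact permutation test, adjusted p = 0.25), 3.05 points (exact permutation test, adjusted p = 0.25) and, reversed, -0.296 points for Cd8b1 minus Cd4. The cause was not tested, apart from the smaller number of samples within a library.

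Of 264 alternatives for single members 230 kept direction and side of the threshold, and the 23 changes of sign were all of members not called. For Lactation minus Gestation, leaving out 1 sample at a time, in fits that also had no library block, gave ranges of -0.37 to 0.75 for Trbv3, -0.66 to 0.0072 for Trbc1, -0.22 to 0.35 for Trbc2, -0.54 to 1.81 for Trgv2, -0.098 to 1.55 for Trdv4 and -0.0094 to 1.06 for Trdc, of which the negative ends for Trgv2, Trdv4, Trdc and Trbc2 came without the earlier Lactation sample. Trbv3 was -0.11 and Trbc2 -0.011 at the tag quantile of 0.95, Trbv3 -0.69 within the earlier and Trbc2 -0.042 within the later library. For Cd8a alone minus Cd8b1, Trbc2 was -0.050 with no filter, -0.0054 with doublet calls kept and -0.093 within the later library. For Cd8b1 minus Cd4, Trbc1 was 0.062 with no filter, 0.0045 with at least 2 CD3 UMIs, 0.0048 with at least 1000 UMIs, 0.034 at the quantile of 0.95, 0.013 with no replicate block and 0.00035 within the earlier library, and Trbc2 was 0.043 with no filter. V segments other than Trgv2 were too sparse for the class fits, which limits what can be said of them.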
